A study of Mus musculus with 12 samples.

Results

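Immediate early genes are the first genes that a neuron transcribes after it fires, and 10 of them were followed here in the hippocampus of each mouse: *Fos*, *Fosb*, *Junb*, *Egr1*, *Egr2*, *Egr4*, *Arc*, *Npas4*, *Nr4a1* and *Ier2*. They were chosen by symbol and matched to the Entrez identifiers of a table of raw read counts, in which they make up 10 of 27179 identifiers, and all 10 passed the filter on low counts. Hippocampal RNA came from 12 mice, each 3 months old, 6 WT and 6 *Nell-1+/6R*, with 3 females and 3 males of each genotype. *Nell-1+/6R* mice carry a single loss-of-function copy of *Nell1*, which encodes a secreted protein known from bone and cartilage formation, in every cell, and the WT mice were their littermates. No mouse was labelled as stimulated, treated or tested before the tissue was taken. According to the methods, the mice were killed by decapitation under anesthesia, the skull was opened at room temperature and the hippocampus was dissected out in ice-cold medium, while the sources used here do not give the time of day, the anesthetic or the minutes that passed. The levels below are those of the tissue after this handling.

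In a resting hippocampus most of these transcripts are low, and after activity they rise within minutes and decay fast. Calcium entry and receptor signalling switch on kinases that phosphorylate factors already sitting at the promoters, among them CREB, which binds cyclic AMP response elements, and serum response factor, which binds CArG boxes. The products then act on later genes (*Fos*, *Fosb* and *Junb* as subunits of the AP-1 transcription factor, *Egr1*, *Egr2* and *Egr4* as zinc finger factors, *Npas4* and *Nr4a1* as further factors) or, in the case of *Arc*, directly at the synapse.

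Short stretches of the promoters are shown because they hold letters that match short promoter motifs. Whether activity reaches these genes through the matched letters was not tested. RefSeq promoter windows of GRCm38, each from 250 bases before to 50 bases after an annotated start, were found for 7 of the 10 genes. *Egr1*, *Arc* and *Ier2* had no entry. Sequences are written 5′ to 3′ on the strand of the gene, and capitals mark TGACG, the core of a cyclic AMP response element, or its reverse complement CGTCA, together with the other motifs named with each gene.
Fos, chr12:85473753-85473870, plus strand, with TATAAA also in capitals: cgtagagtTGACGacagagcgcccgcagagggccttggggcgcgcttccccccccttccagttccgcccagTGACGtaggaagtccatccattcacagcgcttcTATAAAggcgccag
Fosb, chr7:19310082-19310110, minus strand, with the EGR motif GCGNGGGCG also in capitals: gcgggTGACGcaagcGCGGGGGCGggtcc
Junb, chr8:84978842-84978862, minus strand: cctgacagTGACGcgagccgc
Egr2, chr10:67537793-67537822, plus strand, with a CArG box also in capitals: cagtCCATATATGGgcagcgaCGTCAcggg
Egr4, chr6:85513686-85513774, minus strand: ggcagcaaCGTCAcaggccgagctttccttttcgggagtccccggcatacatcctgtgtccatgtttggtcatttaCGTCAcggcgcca
Nr4a1, chr15:101266784-101266812, plus strand, with the EGR motif on the opposite strand also in capitals: ggCGCCCCCGCccctctccatgCGTCAcg
Npas4, chr19:4990129-4990157, minus strand: cgttcgaCGTCAcgggaTGACGtcggaag

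TGACG was read on either strand in the windows of 7 of 7 genes, against 23.0% of the 27018 genes with a window. *Egr2* had windows at several annotated starts, not all of them with TGACG, and its stretch was picked from 1 of these windows. Of the 11 windows of the 7 genes, 9 held TGACG, against 20.8% of all windows. The whole palindromic element TGACGTCA, which contains TGACG, was in 0 of the 7, against 2.03% of genes. A CArG box was in the windows of 1 of the 7, *Egr2*, against 1.81% of genes, and the EGR motif was in 2, *Fosb* and *Nr4a1*, against 6.27%. The AP-1 motif TGANTCA was in 0 of the 7, against 8.98% of genes, and TATAAA in 2, *Fos* and *Junb*, against 15.7%. These are matches of letters within 300 bases and say nothing of a site further away. The stretch of *Npas4* lies in an annotated exon, and those of *Fosb*, *Egr2* and *Nr4a1* lie inside the span of a longer RefSeq transcript of the gene.

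The libraries held between 10834905 and 16016317 counted reads, and 17937 genes were tested. *Nell1* was between 17.2 and 20.8 CPM (read counts scaled to library size) in the *Nell-1+/6R* mice and between 30.6 and 44.0 CPM in the WT mice, so the groups did not overlap, and the sex labels matched the data in 12 of 12 mice. The markers of hippocampal neurons were present in every mouse, the sum of 8 CA pyramidal neuron markers being between 762 and 899 CPM and that of 8 dentate granule neuron markers between 329 and 485 CPM. Markers of the choroid plexus, which lies against the hippocampus, ranged from 40.5 to 5146 CPM between mice when summed over 8 genes. Fewer cells of a type and less RNA per cell cannot be told apart in such tissue.

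Levels of different genes were compared per kilobase of merged exons, taken over all GENCODE M21 transcripts of a gene. On this scale *Arc* was the most abundant of the 10, at 110 ± 15.6 CPM per kb (SD over 12 mice). *Egr1* followed at 56.6 ± 7.44, *Junb* at 53.6 ± 4.49, *Nr4a1* at 42.7 ± 5.31 and *Egr4* at 29.1 ± 3.82 CPM per kb. Lower still were *Fos* at 15.7 ± 2.52, *Npas4* at 7.78 ± 1.87, *Ier2* at 6.27 ± 1.27, *Fosb* at 3.95 ± 0.672 and *Egr2* at 2.29 ± 0.557 CPM per kb. The ranges over the mice did not overlap between *Arc* and *Egr1*, between *Egr4* and *Fos*, or between *Ier2* and *Fosb*. Neighbours changed places only between *Egr1* and *Junb* and between *Npas4* and *Ier2*, each pair being in the stated order in 8 of 12 mice. The order of the other neighbours was the same in 12 of 12 mice. The merged exons of *Egr1*, 4484 bases, and of *Junb*, 2301 bases, are longer than the RefSeq spans given below. The levels and the close ranks therefore depend on the annotation used for the lengths.

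The first comparison asked whether the level of these genes in the dissected tissue differs between *Nell-1+/6R* and WT mice, and none of the 10 did by the test used. In the quasi-likelihood test of edgeR, with a term for sex, 0 of 10 had an unadjusted p under 0.05, against 3.26% of all genes tested. As single mice were left out, 0 of the 10 passed each time, while the count over all genes, 584, ran from 382 without female *Nell-1+/6R* replicate 2 to 914 without replicate 3 of that group. None was past the thresholds of the study, an unadjusted p under 0.05 with a fold change above 1.5, which 1.46% of all genes passed, nor had an adjusted p under 0.05, which 0.039% of all genes had. The values of both genotypes overlapped for each of the 10 genes, where 0.151% of all genes had groups that did not overlap. Every 95% interval of the log2 fold change lay within ±0.58, the log2 of 1.5, so a change of that size in the mean lay outside the intervals. On the log2 scale 3 genes were higher and 7 lower in *Nell-1+/6R*, with a median of -0.05, beside a median of -0.00 over all genes.

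**Figure D1:**
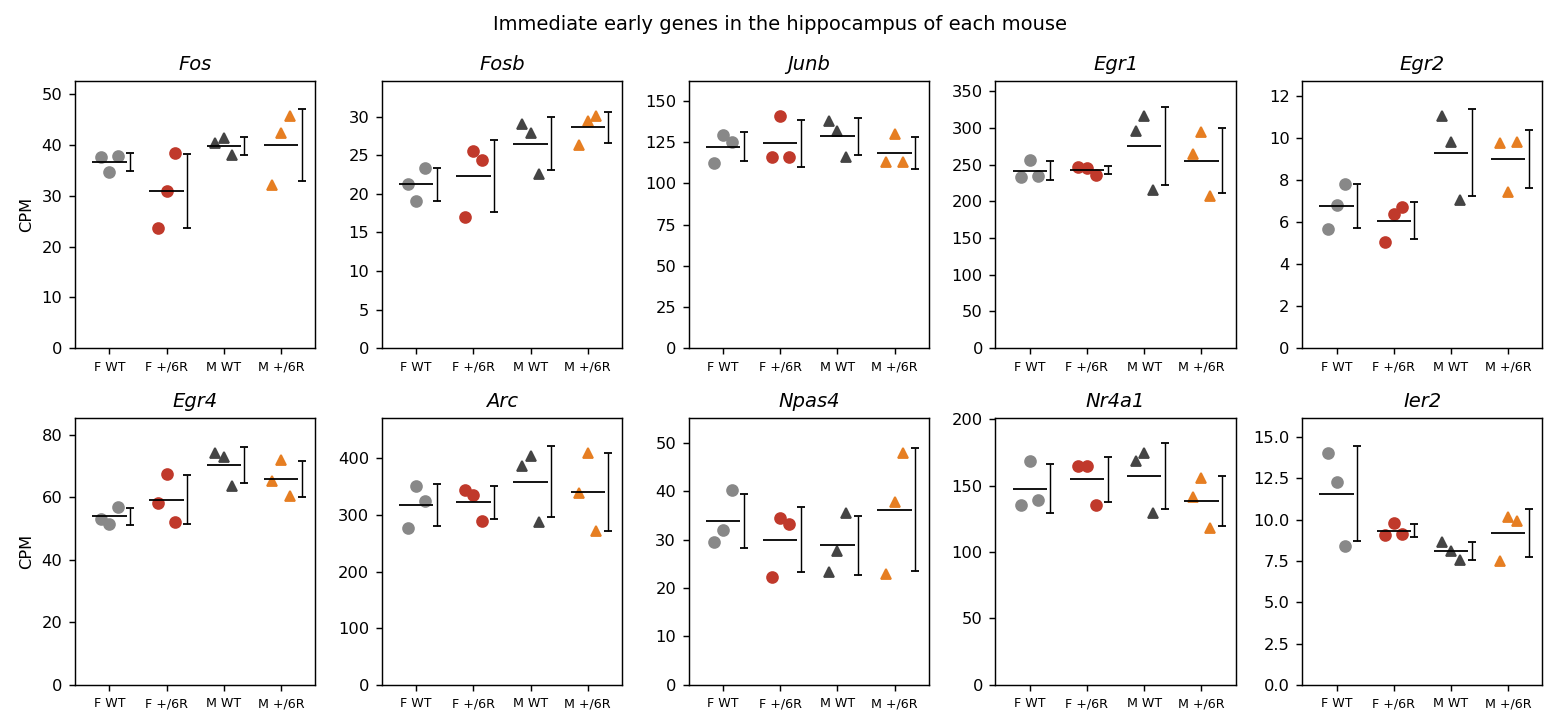
Level of each of the 10 genes in CPM (read counts scaled to library size) in the hippocampus of 12 mice, grouped as female (F) and male (M) WT and Nell-1+/6R (+/6R). Each point is 1 mouse, the horizontal line is the mean of 3 mice and the bar beside it is ± 1 SD, and the WT and Nell-1+/6R points overlap for every gene.

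Among the AP-1 subunits, *Fos* (Entrez 14281, chr12:85473890-85477274) was between 34.7 and 41.4 CPM in the WT mice, with a median of 37.9, and between 23.6 and 45.8 CPM in *Nell-1+/6R*, with a median of 35.2. The *Nell-1+/6R* mice held both the lowest and the highest *Fos* of the 12, so that WT lay inside their range. The log2 fold change was -0.12 (SE 0.113, 95% interval -0.36 to 0.12, unadjusted p = 0.309 in edgeR). *Fosb* (Entrez 14282, chr7:19302696-19310118), whose stable splice form builds up with repeated activity, was between 19.1 and 29.0 CPM in WT mice and from 16.9 to 30.1 CPM in the *Nell-1+/6R* mice. Its medians of 23.0 and 25.95 CPM lay in the opposite order to those of *Fos*, and its log2 fold change was 0.09 (SE 0.103, 95% interval -0.13 to 0.31). *Junb* (Entrez 16477, chr8:84976909-84978748) was the steadiest of the 10, between 113 and 138 CPM in WT mice and from 113 to 141 CPM in the *Nell-1+/6R* mice. Its log2 fold change was -0.05 (SE 0.0714, 95% interval -0.20 to 0.11). *Junb* overlaps *Prdx2* on the opposite strand, and reads of the pair cannot be told apart unless the counting used the strand, a setting that the sources used here do not give.

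The zinc finger factors of the Egr family bind GC-rich sites in the promoters of synaptic genes. *Egr1* (Entrez 13653, chr18:34861207-34864956) was between 216 and 316 CPM in WT, with a median of 245, and between 208 and 295 CPM in *Nell-1+/6R*, with a median of 246. These medians were nearly equal, and the log2 fold change was -0.05 (SE 0.0956, 95% interval -0.26 to 0.15). *Egr2* (Entrez 13654, chr10:67534469-67542188), the least abundant, was counted 66 to 144 times per library and lay between 5.68 and 11.04 CPM in WT mice and from 5.06 to 9.82 CPM in the *Nell-1+/6R* mice. The ranges shared most of their width, and the log2 fold change was -0.10 (SE 0.137, 95% interval -0.39 to 0.19). *Egr4* (Entrez 13656, chr6:85511121-85513589) was between 51.7 and 74.4 CPM in WT mice and from 52.2 to 72.0 CPM in the *Nell-1+/6R* mice, and its log2 fold change of 0.02 (SE 0.0779, 95% interval -0.15 to 0.19) was the closest to 0 of the 10.

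*Arc* (Entrez 11838, chr15:74669081-74672570) encodes a protein that takes part in the removal of AMPA receptors from synapses, and its mRNA is carried into dendrites. It was between 278 and 404 CPM in the WT mice, with a median of 337, and between 272 and 410 CPM in *Nell-1+/6R*, with a median of 337. Both genotypes covered nearly the same range, and the log2 fold change was -0.03 (SE 0.106, 95% interval -0.26 to 0.20).

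*Npas4* (Entrez 225872, chr19:4984353-5003439) encodes a factor that responds selectively to calcium entry in neurons and controls inhibitory synapses. It was between 23.3 and 40.2 CPM in WT mice and from 22.2 to 48.0 CPM in the *Nell-1+/6R* mice, a wide range in both. Its log2 fold change of 0.07 (SE 0.183, 95% interval -0.32 to 0.47) had the widest interval of the 10. *Nr4a1* (Entrez 15370, chr15:101253902-101274795), an orphan nuclear receptor, was between 129 and 175 CPM in WT mice and from 118 to 165 CPM in the *Nell-1+/6R* mice, with a log2 fold change of -0.06 (SE 0.0992, 95% interval -0.27 to 0.15). *Ier2* (Entrez 15936, chr8:84661331-84662852), a small nuclear protein of the serum response, was between 7.56 and 14.1 CPM in WT mice and from 7.51 to 10.1 CPM in the *Nell-1+/6R* mice. The WT mice spread further because 2 WT females lay at 12.3 and 14.1 CPM, above every other mouse, and the log2 fold change was -0.07 (SE 0.142, 95% interval -0.38 to 0.23).

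The adjusted p was above 0.99 for each of the 10 genes in edgeR. Exact two-sided permutation tests over every split of the 12 mice into 6 and 6, which can give no p below 0.00216, gave p between 0.396 for *Fos* and 0.864 for *Egr4*. Within females, within males and in the genotype by sex interaction, 0 of 10 genes had an unadjusted p under 0.05 in edgeR, against 2.84%, 3.37% and 3.09% of all genes. The interaction was largest for *Npas4*, whose *Nell-1+/6R* minus WT difference in log2 was -0.18 in females and 0.33 in males, 0.50 apart (SE 0.352, unadjusted p = 0.176 in edgeR). For *Ier2* the same differences were -0.31 and 0.18, 0.49 apart (SE 0.261, unadjusted p = 0.0816 in edgeR).

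**Figure D2:**
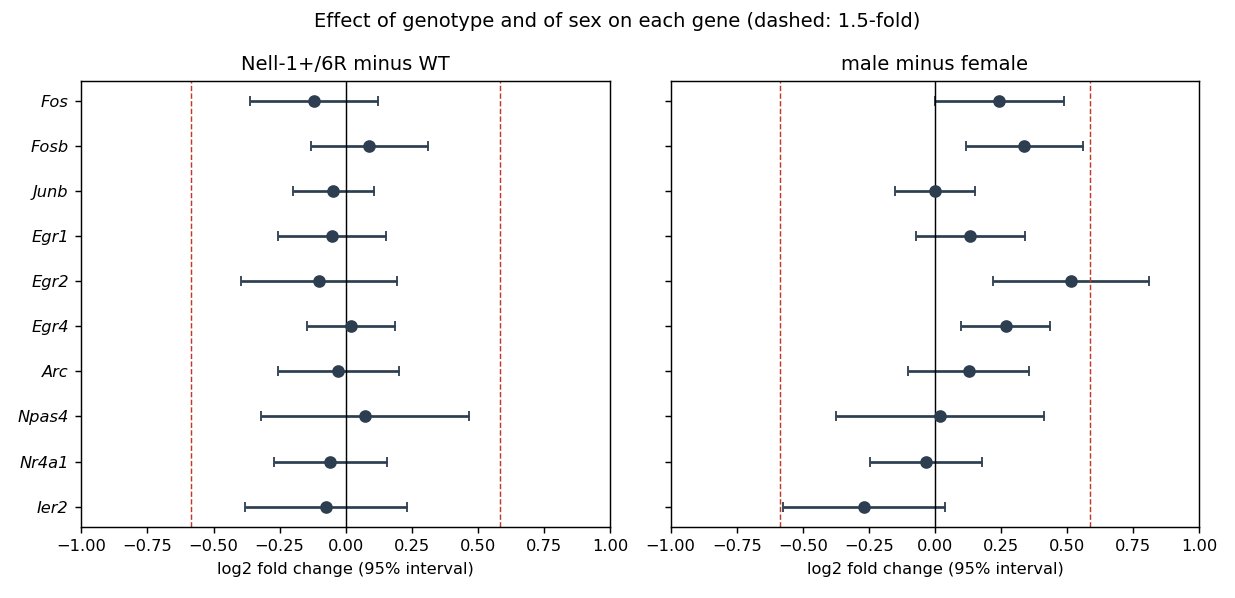
Log2 fold change of each gene with its 95% interval from edgeR, for Nell-1+/6R minus WT (left) and male minus female (right), over 12 mice. Dashed lines mark a fold change of 1.5, and every genotype interval lies between them and includes 0, while the sex intervals of Fos, Fosb, Egr2 and Egr4 lie above 0.

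Between the sexes, 4 of the 10 genes were higher in males at an unadjusted p under 0.05 and 0 were lower. Over all genes, 1.87% were higher in males by that rule and 2.85% lower, together 847 genes. As single mice were left out, 3 to 5 of the 10 and 598 to 1687 of all genes differed in either direction, with 1687 without female *Nell-1+/6R* replicate 3 and 1365 without female WT replicate 3. None of the 10 had an adjusted p under 0.05, which 0.0335% of all genes had, and the adjusted p of these 4 was 0.868 in edgeR. None was past a fold change of 1.5 either, against 1.35% of all genes with an unadjusted p under 0.05. *Egr2* was between 5.06 and 7.78 CPM in females, with a median of 6.54, and between 7.03 and 11.04 CPM in males, with a median of 9.78. Of the 6 males, 4 lay above the highest female, and the male minus female log2 fold change was 0.52 (SE 0.137, 95% interval 0.22 to 0.81, unadjusted p = 0.00216 in edgeR, exact permutation p = 0.0108).

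*Egr4* was between 51.7 and 67.6 CPM in females and between 60.5 and 74.4 CPM in males, with 3 males above the highest female. Its log2 fold change was 0.27 (SE 0.0779, unadjusted p = 0.00412 in edgeR, exact permutation p = 0.0108). *Fosb* was between 16.9 and 25.6 CPM in females and between 22.6 and 30.1 CPM in males. All males but 1 were above the highest female, and the log2 fold change was 0.34 (SE 0.103, unadjusted p = 0.00561 in edgeR, exact permutation p = 0.0130). *Fos* was between 23.6 and 38.4 CPM in females and between 32.1 and 45.8 CPM in males, with a log2 fold change of 0.24 (SE 0.113, unadjusted p = 0.0496 in edgeR, exact permutation p = 0.0693). The *Fos* difference fell to 0.16 without female *Nell-1+/6R* replicate 1, the mouse with the lowest *Fos*, and its unadjusted p was under 0.05 in only 4 of 12 fits that left out a mouse, whereas those of *Egr2*, *Egr4* and *Fosb* were under 0.05 in 12 of 12.

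Of the other 6 genes, *Egr1* had a male minus female log2 fold change of 0.13 (SE 0.0956) and *Arc* of 0.13 (SE 0.106). Their ranges in males, 208 to 316 CPM for *Egr1* and 272 to 410 CPM for *Arc*, enclosed those in females. *Junb*, *Npas4* and *Nr4a1* had values of -0.00, 0.02 and -0.03, and *Ier2* of -0.27 (SE 0.142, unadjusted p = 0.0800 in edgeR).

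Taken within each genotype, *Egr2* was higher in males by 0.46 in log2 in WT (unadjusted p = 0.0382 in edgeR) and by 0.57 in *Nell-1+/6R* (unadjusted p = 0.0139). *Fosb* gave 0.32 in WT (unadjusted p = 0.0564 in edgeR) and 0.36 in *Nell-1+/6R* (unadjusted p = 0.0349). *Egr4* gave 0.38 in WT (unadjusted p = 0.00310 in edgeR) and 0.15 in *Nell-1+/6R* (unadjusted p = 0.172), and *Fos* 0.12 (unadjusted p = 0.463) and 0.37 (unadjusted p = 0.0381). *Ier2* had a male minus female log2 fold change of -0.52 in WT (unadjusted p = 0.0155 in edgeR) and -0.02 in *Nell-1+/6R* (unadjusted p = 0.902), and the difference between these is the interaction given above, which did not pass. By the unadjusted rule 3 of the 10 genes differed between the sexes in WT, against 2.74% of all genes, and 3 in *Nell-1+/6R*, against 5.51%. Only *Egr2* was among the 3 in both.

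Most cell type markers did not pass between the sexes. Of 13 lists, 5 had a marker that passed the unadjusted rule, which 1.87% of all genes passed as higher and 2.85% as lower in males, and none of those markers had an adjusted p under 0.05 in edgeR. Of 8 dentate granule neuron markers, 7 had a higher and 1 a lower log2 value in males, with a median of 0.14 and 1 passing the unadjusted rule, *Dsp* at 0.50 (unadjusted p = 0.0247 in edgeR). Their sum had a median of 394 CPM in females, with a range of 349 to 431, and of 453 CPM in males, with a range of 329 to 485. Of 8 GABAergic neuron markers, *Sst* at -0.17 and *Npy* at -0.29 passed as lower in males, and their sum ranged from 584 to 689 CPM in females and from 559 to 687 CPM in males. In the astrocyte list *Gja1* passed as higher, at 0.17 (unadjusted p = 0.0106 in edgeR), and in the mural cell list *Vtn* as lower, at -0.26 (unadjusted p = 0.0357), each 1 of 8 markers. All 8 choroid plexus markers had lower values in males, with a log2 fold change of -1.12 at the median and none with a p under 0.05, and their sum ranged from 40.5 to 5146 CPM in females and from 45.2 to 4634 CPM in males. The 8 oligodendrocyte markers all had lower values in males as well, with a median of -0.25 and none with a p under 0.05, and their sum ranged from 3872 to 6785 CPM in females and from 3102 to 5225 CPM in males. Of 8 leptomeningeal fibroblast markers, 6 had lower and 2 higher values in males, with a median of -0.48 and none with a p under 0.05, and their sum ranged from 66.1 to 365 CPM in females and from 71.0 to 356 CPM in males. The 3 red blood cell markers measured were lower at an unadjusted p under 0.05, with summed ranges of 12.03 to 28.8 CPM in females and 9.06 to 17.3 CPM in males. The sum of none of these lists was 0 in any mouse, and the part of these cells in the differences of *Egr2*, *Egr4*, *Fosb* and *Fos* was not tested.

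Across the 12 mice the 10 genes did not rise and fall as a block. The highest value of a gene was 1.25 times the lowest for *Junb* and 2.18 times for *Egr2*, with the coefficient of variation running from 8.38% for *Junb* to 24.0% for *Npas4* and 24.3% for *Egr2*. Among the 14386 genes with a mean of at least 1 CPM, the biological coefficient of variation of the 10, which removes counting noise, sex and genotype, lay between the percentile 28.9 for *Junb* and 88.2 for *Npas4*. The pairwise correlations of log2 CPM, with the genotype means removed, were positive in 30 of 45 pairs and negative in 15, with a median Pearson r of 0.241.

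The closest pair was *Arc* with *Egr1*, at a Pearson r of 0.936 and a Spearman rho of 0.958 over 12 mice (permutation p = 0.00011 and 0.00016, adjusted over 45 pairs 0.00495 and 0.00607). It stayed at 0.891 without the 2 mice farthest from the median and at 0.928 with the sex means also removed. *Arc* and *Nr4a1* gave a Pearson r of 0.848 and a rho of 0.776 (adjusted permutation p = 0.0308 and 0.0991), and 0.776 for r without 2 mice. *Egr1* and *Nr4a1* were at 0.793 (rho 0.776, adjusted permutation p = 0.0501 and 0.0991), and *Junb* was at 0.753 with *Nr4a1* and 0.711 with *Arc* (adjusted permutation p = 0.0789 and 0.109).

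*Fosb* was closest to *Egr2* and *Fos*. With *Egr2* it had a Pearson r of 0.835 and a rho of 0.895 (adjusted permutation p = 0.0161 and 0.00607), and r was 0.833 without 2 mice but 0.638 with the sex means removed. *Fos* and *Fosb* had an r of 0.826 and a rho of 0.643 (adjusted permutation p = 0.0110 and 0.121), and r was 0.587 without the 2 farthest mice. *Fos* and *Egr2* were at 0.600 (rho 0.671, adjusted permutation p = 0.178 and 0.163), which became 0.230 without 2 mice. Of the pairs that join *Fos* and *Fosb* to *Arc* and *Egr1*, *Fosb* with *Arc* was at 0.241 and *Fosb* with *Egr1* at 0.340. *Fos* was at -0.07 with *Arc* and at 0.03 with *Egr1*. Without the 2 mice farthest from the median of *Fosb* or *Fos*, these became 0.640, 0.589, 0.380 and 0.462. With all mice kept and the sex means also removed, they fell to 0.063, 0.175, -0.26 and -0.14. *Egr4* was at 0.673 with *Fosb*, 0.658 with *Arc* and 0.641 with *Egr1*, none with an adjusted permutation p under 0.05. With the sex means also removed, these were 0.400, 0.706 and 0.622.

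*Npas4* had a Pearson r of -0.55 with *Nr4a1*, -0.51 with *Egr1*, -0.40 with *Arc* and -0.03 with *Junb*, none of which passed (adjusted permutation p = 0.228, 0.232, 0.453 and 0.983). Without the 2 mice farthest from the median of *Npas4*, *Egr1*, *Arc* and *Junb* in turn, these were -0.28, -0.79, -0.27 and 0.10. The r of 0.623 between *Npas4* and *Fos* fell to 0.147 without the 2 mice farthest from the median of *Fos*, so that relation rested on them. With all mice kept and the sex means also removed it was 0.711. *Ier2* had no r above 0.20 with any other of the 10 and was at -0.51 with *Egr4* and -0.49 with *Egr2*, which became 0.01 and -0.31 with the sex means removed.

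**Figure D3:**
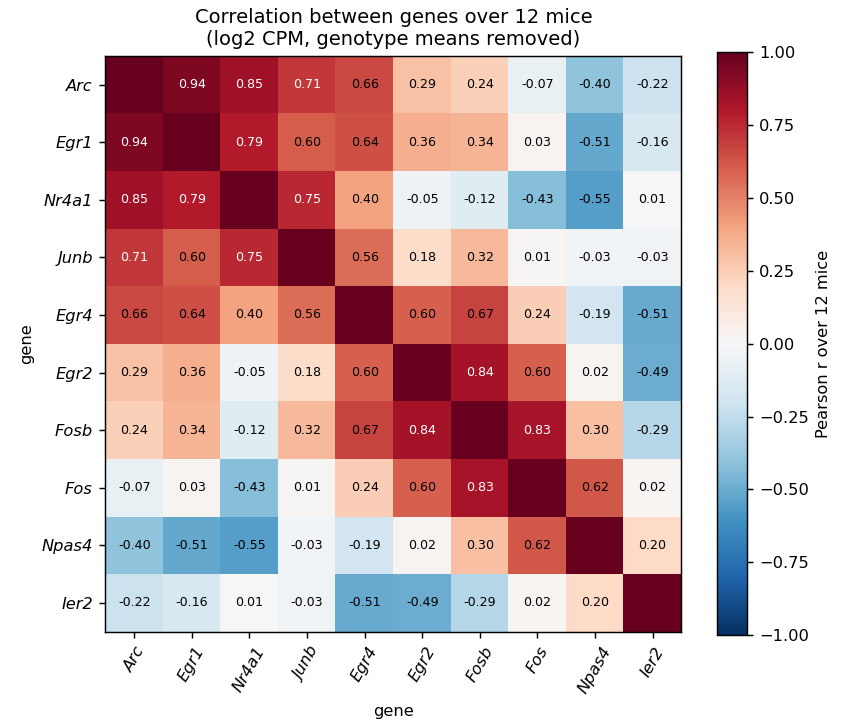
Pearson correlation of log2 CPM between each pair of the 10 genes over 12 mice, after the genotype means were removed, with the value written in each cell and red for positive. The highest values are those of Arc with Egr1 (0.94) and with Nr4a1 (0.85), of Fosb with Egr2 (0.84) and of Fosb with Fos (0.83). The low values between Arc or Egr1 and Fosb or Fos rise when the 2 farthest mice are left out. They fall when all mice are kept and the sex means are also removed.

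Single mice differed in which genes were high. Male *Nell-1+/6R* replicate 3 had the lowest *Arc*, *Egr1* and *Nr4a1* of all mice, at 272, 208 and 118 CPM, together with the highest *Fos*, *Fosb* and *Npas4*, at 45.8, 30.1 and 48.0 CPM. Male WT replicate 3 was also low in the first set, with *Arc* at 287 CPM, *Egr1* at 216 CPM and *Nr4a1* at 129 CPM, and had *Fos* at 38.0 CPM, *Fosb* at 22.6 CPM and *Egr2* at 7.03 CPM, the lowest *Fosb* and *Egr2* of the males. Female *Nell-1+/6R* replicate 1 had the lowest *Fos*, *Fosb*, *Egr2* and *Npas4*, at 23.6, 16.9, 5.06 and 22.2 CPM, and *Nr4a1* at 164 CPM, among the higher values. Male WT replicates 1 and 2 and male *Nell-1+/6R* replicate 2 held the 3 highest values of both *Arc* and *Egr1*, and were also high in *Fos*, at 40.3, 41.4 and 42.3 CPM, and in *Fosb*, at 29.0, 27.9 and 29.4 CPM.

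**Figure D4:**
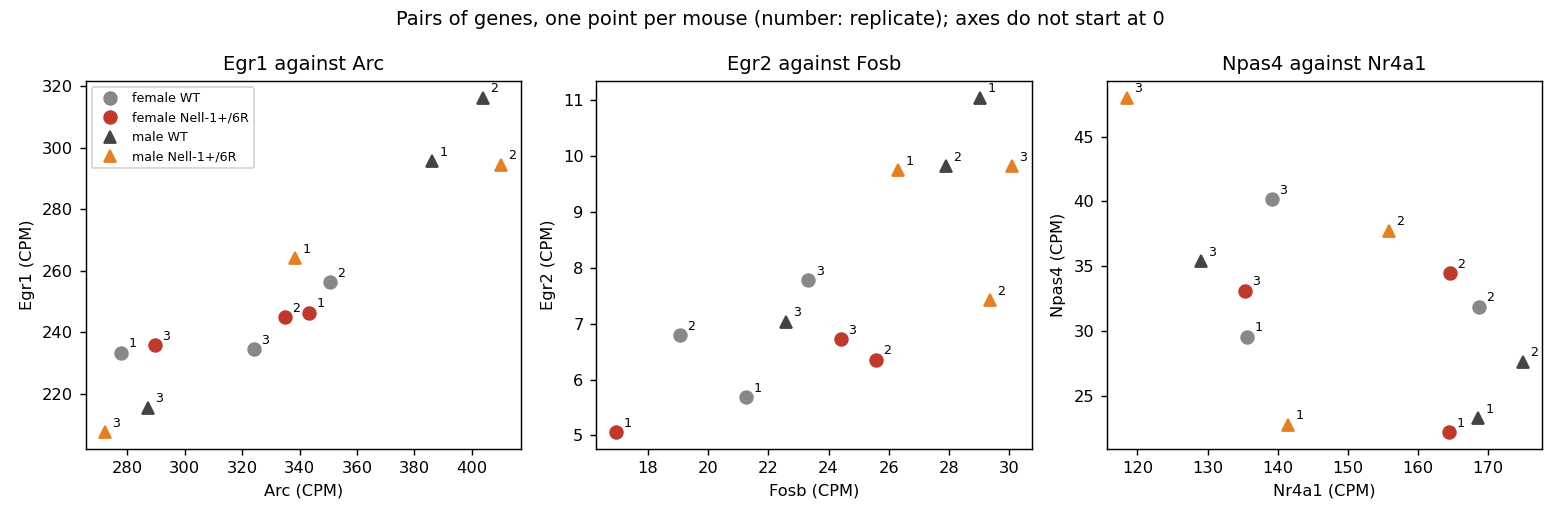
Levels of 3 pairs of genes in CPM, 1 point per mouse with its replicate number, for female (circles) and male (triangles) WT and Nell-1+/6R mice. Egr1 rises with Arc and Egr2 with Fosb, whereas male Nell-1+/6R replicate 3 has the lowest Nr4a1 and the highest Npas4.

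A score, the mean over the 10 genes of log2 CPM centred on each gene's mean, ran from -0.23 in female *Nell-1+/6R* replicate 1 to 0.17 in male *Nell-1+/6R* replicate 2. It was 0.03 lower on average in *Nell-1+/6R*, the difference being -0.03, and 0.13 higher in males than in females. The difference by genotype was between -0.07 and 0.01 as single mice were left out and the difference by sex between 0.10 and 0.16. As each of the 10 genes was left out in turn, the difference by genotype was between -0.05 and -0.02 and that by sex between 0.09, without *Egr2*, and 0.17, without *Ier2*. With each gene divided by its SD, so that the unit is SDs and no longer log2, they were -0.16 and 0.52.

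Outside the 10, the list of 40 other immediate early genes had 0 genes higher and 4 lower in *Nell-1+/6R* at an unadjusted p under 0.05, or 2 to 7 in either direction as single mice were left out. The backgrounds over all genes were 1.06% higher and 2.2% lower, and the median log2 fold change of the list was -0.05. *Klf2*, a factor prominent in endothelial cells, was at 21.3 ± 3.20 CPM (SD, n = 6) in WT mice and 15.4 ± 1.92 CPM (SD, n = 6) in the heterozygotes, a log2 fold change of -0.47 (SE 0.109, unadjusted p = 0.000668, adjusted p = 0.749 in edgeR). *Ccn1* and *Ccn2*, matricellular proteins, gave -0.52 (SE 0.203, unadjusted p = 0.0222) and -0.49 (SE 0.206, unadjusted p = 0.0327), and the kinase *Sik1* gave -0.17 (SE 0.0631, unadjusted p = 0.0171). Of the vascular and meningeal markers, 4 of 8 mural cell, 5 of 8 leptomeningeal fibroblast and 1 of 8 endothelial markers were lower at an unadjusted p under 0.05 and 0 were higher, with median log2 fold changes of -0.16, -0.91 and -0.08. In the same order, their sums ranged from 127 to 222, 113 to 363 and 151 to 187 CPM in the WT mice and from 113 to 166, 66.1 to 365 and 150 to 190 CPM in *Nell-1+/6R*, so that the endothelial sums of the genotypes covered nearly the same range. The part of these cells in *Klf2*, *Ccn1* and *Ccn2* was not tested. Of 8 markers in each neuronal list, 2 dentate granule markers were lower by the unadjusted rule. Those higher were 2 CA pyramidal, 2 GABAergic and 1 pan-neuronal, with 0 the other way in any of these lists. The median log2 fold changes were -0.19, 0.05, 0.09 and 0.06 in that order. *Slc17a6*, 1 of 7 thalamus and habenula markers, was lower at -1.23 (adjusted p = 0.0035 in edgeR). The part of neuron types in the 10 genes was not tested.

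The most abundant of that list in CPM, *Jund* at 235, *Plk2* at 224 and *Per1* at 193, had genotype log2 fold changes of 0.05, -0.04 and -0.03. By sex, 3 of the 40 were higher in males and 0 lower, against 1.87% and 2.85% of all genes, and 1 to 7 differed in either direction as single mice were left out, being 7 without female *Nell-1+/6R* replicate 3, 5 when either male WT replicate 1 or the male *Nell-1+/6R* mouse numbered 3 was dropped, and 1 without female *Nell-1+/6R* replicate 1 or 2. The 3 were *Egr3* by 0.22 (unadjusted p = 0.0213 in edgeR), *Klf10* by 0.26 (unadjusted p = 0.0384) and *Jun* by 0.14 (unadjusted p = 0.0364). These 3 were named after their values had been seen. Within the same families *Egr1* and *Junb*, given above, did not pass by sex.

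For the 3 further lists, the shares over all genes at an unadjusted p under 0.05 were again 1.06% higher and 2.2% lower in *Nell-1+/6R*. Of 27 delayed activity-induced genes, which follow the immediate early genes by hours, 1 was higher and 0 lower. This was *Sorcs3*, a sorting receptor of neurons, at a log2 fold change of 0.16 (unadjusted p = 0.0429 in edgeR). The count of delayed genes was 0 to 2 as single mice were left out. *Nptx1*, *Rasgrp1* and *Lingo1* were the most abundant, at 881, 559 and 317 CPM, and *Bdnf*, the growth factor driven by *Npas4* and CREB, was at 39.4 ± 5.74 CPM (SD, n = 6) in WT mice and 38.8 ± 3.56 CPM (SD, n = 6) in the heterozygotes. Among 30 upstream kinases, phosphatases and factors, 0 were higher and 1 was lower, the ribosomal S6 kinase *Rps6ka2*, at -0.19 (unadjusted p = 0.0159 in edgeR), with 1 to 3 genes as single mice were left out. *Camk2a*, the most abundant of these at 7594 CPM, gave -0.10 (SE 0.0814), *Camk2b* at 2000 CPM gave 0.01 and the calcineurin subunit *Ppp3ca* at 913 CPM gave -0.03, and the factors *Creb1* and *Srf* gave 0.03 and -0.02. Of 13 heat shock genes, whose induction marks stress of the tissue or animal, 0 passed the unadjusted rule, and *Hspa8*, *Hsph1* and *Hsp90aa1* led them at 288, 262 and 228 CPM. By sex, 0 of the 27 delayed, 0 of the 30 upstream and 0 of the 13 heat shock genes passed the unadjusted rule in edgeR. Over all genes, 1.87% passed as higher and 2.85% as lower in males. The list counts in either direction were 0 to 3, 0 to 1 and 0 to 1 as single mice were left out.

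The genes whose pattern over the 12 mice was most like the score, by Pearson r with the genotype means removed among 14386 genes with a mean of at least 1 CPM, were *S1pr1* at 0.905, *Hcrtr1* at 0.895, *Qpct* at 0.886, *Hivep3* at 0.820, *Terf1* at 0.811 and *Scg3* at 0.805. *Ccnh*, *Arl13b*, *Gm14403* and *Slbp* followed at between 0.793 and 0.776. None of these was on the list of other immediate early genes. Of the 10 themselves, which the score includes, *Fosb* ranked highest, at 0.862, while *Nr4a1*, *Npas4* and *Ier2* were at 0.273, 0.266 and -0.06, so the score followed *Fosb* more closely than it did these genes.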

How the data were processed

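Hippocampus RNA of 12 mice was sequenced as single reads of 50 bases. Per the submitters' processing notes the authors aligned reads with HISAT2 2.1.0 to mm10 and counted them with featureCounts 2.0.1, and they deposited raw counts per Entrez gene without normalization or pooling. The sources used here do not give the strand setting or the handling of reads with several matches. The titles of the WT samples also contain the abbreviation for heterozygous, so groups follow the genotype field and the short sample names.

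Of 27179 identifiers, 25275 were named through RefSeq, 18 through GENCODE M21 and 1886 have no name. Coordinates are those of GRCm38 and count from 1. The filter of the study, 0.2 CPM or more in 2 or more mice, was kept, and testing used edgeR 4.0.16 (R 4.3.3), TMM factors, a quasi-likelihood test with sex and genotype, and Benjamini-Hochberg adjustment over 17937 genes. CPM use the TMM factors. Permutation tests and correlations used log2 CPM with a prior count of 2, and 100000 permutations within genotype for correlations. Tables and figures were made in Python 3.11.15 with matplotlib 3.10.9, scipy 1.17.1, numpy 2.4.6 and pandas 2.3.3. The fits were tested on simulated data. Total counts per mouse were 10834905 to 16016317.

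The 10 genes and all gene lists were chosen with earlier results of these data known. Named are the 10 genes, from each list other than cell type markers those with an unadjusted p under 0.05 for genotype (up to 6) and the 3 most abundant, and the 10 genes most like the score. The genes *Bdnf*, *Creb1*, *Srf*, *Egr3*, *Klf10*, *Jun*, *Dsp*, *Sst*, *Npy*, *Gja1*, *Vtn*, *Slc17a6*, *Nfil3*, *Glul*, *Zfp526*, *Tbc1d10a*, *Glis1* and *Pcdhga8* were chosen after their values were seen. Alternatives were limma-voom (limma 3.58.1), DESeq2 1.42.0, other scalings, filters and models, a replicate block and leaving out each mouse.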

Additional observations from a re-analysis of the deposited data

How the results depend on the processing

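For the genotype comparison, 0 of the 10 genes had an unadjusted p under 0.05 in any of 10 other settings (limma-voom with and without sex, DESeq2, DESeq2 or upper-quartile scaling in edgeR, genotype alone, 3 other filters and the replicate block) or in 12 fits that left out a mouse, and the number with a positive log2 fold change was 3 in the former and 2 to 5 in the latter. By sex, the count of genes past a fold change of 1.5 was 0 in the full data and 0 to 1 as single mice were left out, being 1 without male WT replicate 3, and the count at an unadjusted p under 0.05 was 3 to 5. Over all genes, 261 passed the thresholds of the study, against 82 with 1 CPM or more required in 6 mice, 94 with filterByExpr, 170 with DESeq2 and 339 without a filter, and 202 to 400 as single mice were left out, the 400 without female *Nell-1+/6R* replicate 1. Fewer genes were tested under the stricter filters. Replicate numbers showed no clear pairing of mice. The correlation of the deviations of same-numbered WT and *Nell-1+/6R* mice was between -0.39 and 0.38, and 4 of 12 mice were closest to the mouse with their own number. With 3 mice per sex and genotype, this check cannot exclude that some same-numbered mice were paired. With the replicate number as a block, 0 of the 10 genes had an unadjusted p under 0.05, 3 were higher, and 212 genes passed the thresholds of the study. The counts per library were lowest for *Egr2*, at 66 to 144 reads, while the standard error of the genotype log2 fold change was largest for *Npas4*, at 0.183.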

Other observations

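The genes nearest to *Arc* and to *Fosb* were looked up after the correlations among the 10 genes had been seen, so these values are descriptions over 12 mice with the genotype means removed. Of all other genes with a mean of at least 1 CPM, *Egr1* was the nearest to *Arc*. Next came *Zfp526* at a Pearson r of 0.888, *Glul*, the glutamine synthetase of astrocytes, at 0.884 and *Tbc1d10a* at 0.857, and *Nr4a1* ranked 5. *Nfil3* at 0.836 and *Per1* at 0.812, factors of the circadian clock that are also counted as immediate early genes, ranked 7 and 13. Of 38 other immediate early genes with a mean of at least 1 CPM, 12 had an r above 0.5 with *Arc*, against 8.75% of all genes, and their median r was 0.313. Nearest to *Fosb* were *Glis1* at 0.925, *Scg3* at 0.907 and *Pcdhga8* at 0.905, while *Egr2* and *Fos* ranked 17 and 22. With *Fosb*, 6 of the 38 had an r above 0.5, against 13.0% of all genes, and their median r was -0.04.

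Among 26 relations of *Arc* and *Fosb* with 13 marker lists, none had an adjusted permutation p under 0.05. *Fosb* had a Pearson r of -0.76 and a Spearman rho of -0.70 with the choroid plexus list (permutation p = 0.0209 and 0.0233, adjusted 0.431 and 0.464), which became -0.59 for r once the 2 most distant mice were left out. With the red blood cell list it had an r of -0.59 and a rho of -0.65 (permutation p = 0.0486 and 0.0357, adjusted 0.431 and 0.464). *Fosb* was also at 0.647 with the pan-neuronal list (rho 0.371, permutation p = 0.0663 and 0.233) and at -0.61 with the oligodendrocyte list (rho -0.33, permutation p = 0.0632 and 0.315), which became 0.391 and -0.19 without 2 mice. *Arc* was at -0.23 with the choroid plexus list (rho -0.21, permutation p = 0.495 and 0.530) and at 0.531 with the CA pyramidal neuron list (rho 0.476, permutation p = 0.0919 and 0.139), and the latter r became 0.206 without 2 mice.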
